A study of Homo sapiens with 15 samples.

Results

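Amino acids cross membranes through solute carriers, proteins named SLC with a family number, and this account follows 33 of their genes in HT-1080, a cell line from a human fibrosarcoma. The genes were chosen by name as carriers of amino acids and read from a table of 60670 genes, in which each of the 33 was found under 1 identifier. The libraries came from bulk RNA of 5 groups of 3 biological replicates. Cycling cells received the vehicle DMSO and carry the time label 6 h. The senescent state was induced by 6 days of expression of a TRF2 mutant that acts as a dominant negative (TRF2, gene TERF2, protects telomeres), and these cells then received DMSO for 6 h, 1 uM of the kinase inhibitor GNF-7 for 6 h, DMSO for 24 h, or 1 uM GNF-7 for 24 h. All groups are the same line in medium with tetracycline-free serum, and the sources used here do not state whether the cycling cells carry the mutant. No cycling library with GNF-7 and no cycling library at 24 h was analysed here, so the effect of GNF-7 is known here only in senescent cells. In bulk RNA a change in the share of a kind of cell and a change in RNA per cell cannot be told apart.

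GCN2, the kinase that the series title says GNF-7 activates, senses uncharged transfer RNA when amino acids run short and phosphorylates the initiation factor eIF2, after which most translation slows while the transcription factor ATF4 is made. ATF4 is known to raise genes for amino acid synthesis and uptake, among them many of the carriers described here. Proliferating cells are known to draw on the same carriers to feed protein synthesis, and some carriers on the lysosome are known to report amino acids to the growth kinase complex mTORC1.

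Library totals ranged from 25991007 to 32323393 counts. TERF2 was at 58.2 CPM on average in cycling cells and at 287 CPM in senescent vehicle cells at 6 h, where CPM is counts per 1000000 after adjustment of library sizes by the TMM method. Mutant and endogenous transcripts are counted together. With GNF-7 TERF2 was at 222 ± 8.60 CPM (SD, n = 3) at 6 h, and at 24 h it was at 220.0 ± 7.26 CPM in vehicle and 132 ± 5.38 CPM with GNF-7. The proliferation marker MKI67 averaged 509 CPM in the cycling group, 149 CPM in its senescent counterpart and 114 CPM with GNF-7 at 6 h. At 24 h it was at 125 CPM in vehicle and 39.1 CPM with GNF-7. For the lamin gene LMNB1 these means were 234, 32.2, 24.4, 32.0 and 10.9 CPM, in the same order. CDKN1A, read as a further marker of the state, was at 186 ± 2.54, 501 ± 8.96, 518 ± 17.4, 560 ± 8.93 and 468 ± 8.95 CPM. CDKN1A was thus higher in senescent than in cycling cells, and at 24 h lower with GNF-7 than in vehicle. The part of these levels in the results below was not tested. The mesenchymal markers VIM, FN1, CDH2, CD44, COL6A1 and MMP14 were at 53.9 CPM or more in every library, whereas NT5E, also on that list, was at no more than 0.747 CPM. Of the markers of other cell types, EPCAM, CDH1, KRT5, CDH5, PTPRC and CD3E were below 0.3 CPM in every library, PECAM1 was at 1.06 CPM or less and CD68 at 4.61 CPM or less, while the epithelial keratin KRT8 was at 147 to 299.5 CPM. The share of counts from mitochondrial genes rose from between 3.75% and 5.01% in cycling libraries to between 22.6% and 24.1% with GNF-7 at 24 h, and its part in the results below was not tested beyond a rescaling without those genes, which left every count of called carriers given below as it was.

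The low-count filter of edgeR kept 27 of the 33 carriers. The 6 that were too low to test were SLC7A3, SLC7A10, SLC3A1, SLC1A2, SLC38A4 and SLC38A5. No library held a count of SLC7A3, a cationic amino acid carrier, and a count of 0 allows up to 3 counts, or 0.0947 to 0.121 CPM depending on the library. SLC7A10 had at most 4 counts in a library, SLC38A4 at most 6, SLC1A2 at most 9 and SLC3A1 at most 12. SLC38A5, a sodium-coupled carrier of glutamine and related amino acids, had 1, 0 and 1 counts in the cycling libraries, at most 4 in every other library outside the last group, and 5, 18 and 11 counts with GNF-7 at 24 h. SLC38A3 passed the filter at 1 to 13 counts a library and was called in no comparison.

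In senescent cells the carriers SLC7A5 (large neutral amino acids), SLC7A1 and SLC7A2 (cationic), SLC1A4, SLC1A5 and SLC38A1 (small neutral) were lower than in cycling cells. The glutamate carriers SLC1A1 and SLC1A3 and the lysosomal SLC38A7 and SLC36A1 were higher, as were SLC43A2, SLC38A10, SLC6A15 and SLC38A6. SLC38A9 was called higher with overlapping groups and a call that single libraries could end. Of the 27 tested in vehicle at 6 h, 13 were called lower at a Benjamini-Hochberg adjusted p under 0.05 and 9 higher, and 5 were not called. Over all 18563 genes tested 34.4% were called lower and 35.6% higher, and among the 192 other SLC genes tested 56 were lower and 98 higher. The median log2 fold change was -0.12 for the 27 carriers and 0.06 for all genes tested.

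With GNF-7, SLC7A5, SLC3A2, SLC7A1, SLC1A4, SLC1A5 and SLC6A9 rose above vehicle at both times, by 0.96 to 2.90 on the log2 scale. At 6 h, 14 of the 27 were called higher, 6 lower and 7 neither, against 17.9% higher and 21.4% lower over all genes. At 24 h, 13 were called higher, 7 lower and 7 neither, against 29.3% higher and 29.7% lower. The medians were 0.25 at 6 h and 0.29 at 24 h, beside 0.01 and 0.04 for all genes. Among the other SLC genes, 24 were called higher and 60 lower at 6 h, and 52 higher and 75 lower at 24 h. The comparisons at 6 h and at 24 h share no library, and 12 of the 14 carriers called higher at 6 h were among the 13 called higher at 24 h (85.7% and 92.3% of each). Over all genes, 2413 were called higher at both times (72.8% of those at 6 h and 44.4% of those at 24 h).

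**Figure D1:**
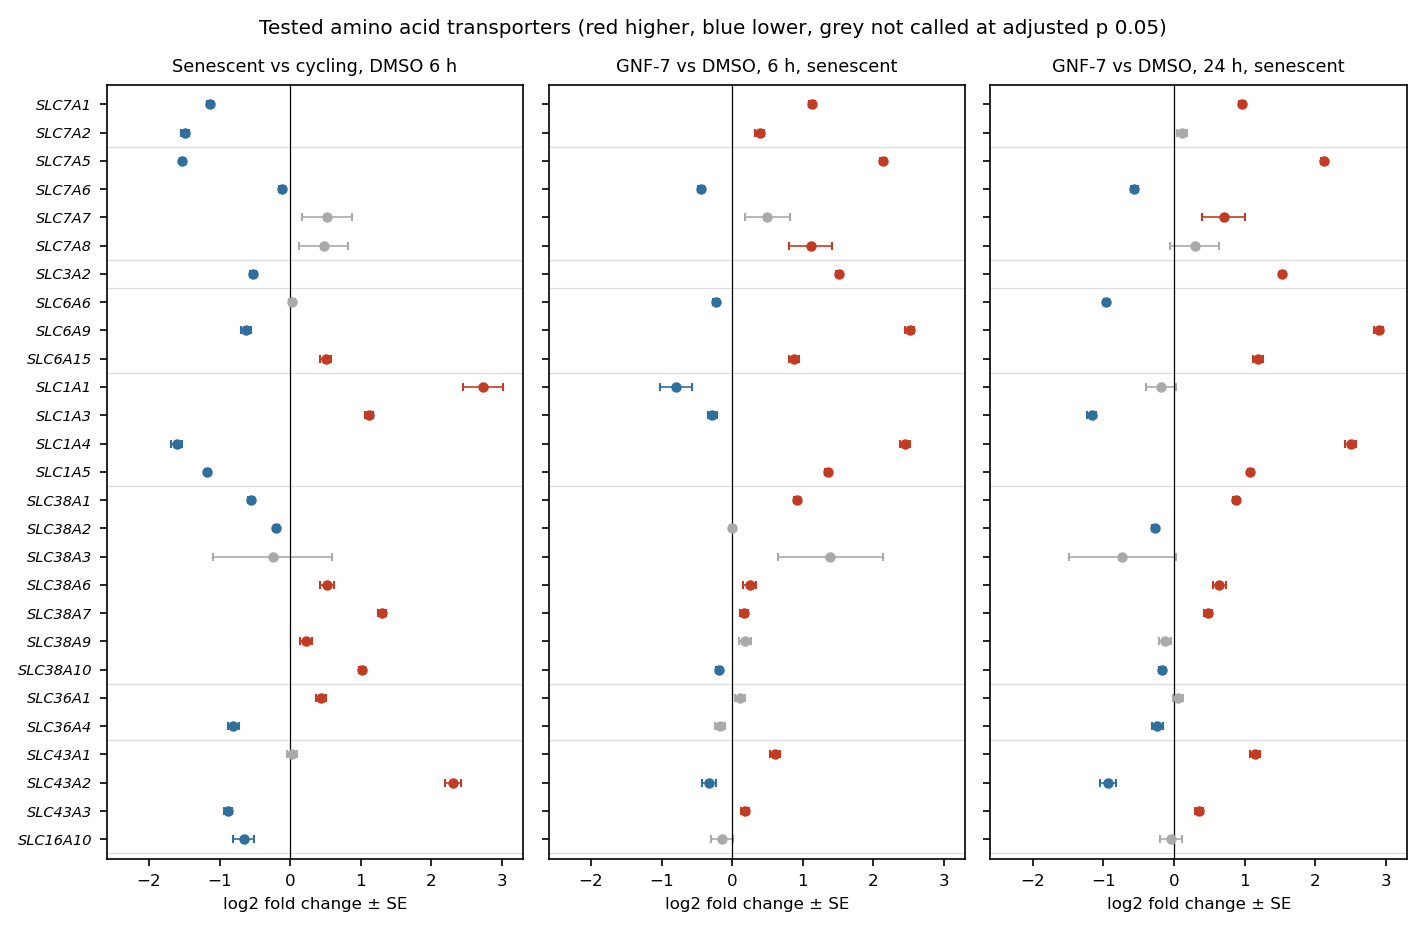
Log2 fold change with its standard error for the 27 tested carriers (rows, grouped by family), in senescent against cycling vehicle cells (left), GNF-7 against vehicle at 6 h (middle) and at 24 h (right). SLC7A5, SLC3A2, SLC1A4, SLC1A5, SLC7A1 and SLC6A9 lie left of 0 in senescence and right of it after GNF-7, where SLC6A9 reaches 2.90 at 24 h.

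The heteromeric carriers pair a heavy chain, which brings the complex to the cell surface, with a light chain, which moves the amino acids. SLC3A2 (ENSG00000168003, GRCh38 chromosome 11, 62856102 to 62888875, plus strand) encodes the heavy chain CD98. It was at 189.8, 179 and 187 CPM in cycling libraries and 129.6, 126 and 131 CPM in senescent vehicle libraries at 6 h. With GNF-7 it was at 365, 359 and 376 CPM at 6 h. After 24 h vehicle libraries held 108, 104 and 102 CPM and GNF-7 libraries 289.6, 312 and 309.9 CPM. The GNF-7 libraries thus lay above every cycling library as well as above their own vehicle, with no overlap. The log2 fold change was -0.52 (SE 0.0388, adjusted p 6.14e-19) in senescence, 1.51 (SE 0.0385, adjusted p 4.05e-41) for GNF-7 at 6 h and 1.54 (SE 0.0391, adjusted p 1.5e-41) at 24 h.

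SLC7A5 (ENSG00000103257, chromosome 16, 87830023 to 87869488, minus strand) is the light chain known as LAT1, which imports leucine and other large neutral amino acids. It was at 472, 462 and 474 CPM in cycling libraries and 169, 159 and 159.5 CPM in senescent vehicle libraries at 6 h. GNF-7 libraries held 736, 682 and 728 CPM at 6 h. At 24 h vehicle libraries held 86.1, 87.5 and 88.1 CPM and GNF-7 libraries 372, 369 and 395 CPM. No group overlapped another, and the order ran from GNF-7 at 6 h down through cycling cells, GNF-7 at 24 h and vehicle at 6 h to vehicle at 24 h. The log2 fold change was -1.53 (SE 0.0373, adjusted p 6.31e-43) in senescence, and with GNF-7 it was 2.14 (SE 0.0376, adjusted p 8.83e-50) at 6 h and 2.12 (SE 0.039, adjusted p 5.93e-49) at 24 h. Between 6 h and 24 h in vehicle SLC7A5 fell by 0.90 on the log2 scale (adjusted p 2.46e-27). The log2 effect of the drug at 24 h less that at 6 h was -0.02 (95% interval -0.12 to 0.09, adjusted p 0.848).

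SLC7A6 fell where SLC7A5 rose. SLC7A6, which exchanges cationic for neutral amino acids with SLC3A2 as its partner, was at 84.9 ± 3.36 CPM (SD, n = 3) in vehicle and 62.7 ± 1.23 CPM with GNF-7 at 6 h, and at 70.97 ± 2.74 and 48.1 ± 1.31 CPM at 24 h. It fell with GNF-7 by 0.44 at 6 h (adjusted p 4.06e-12) and fell by 0.56 at 24 h (adjusted p 4.72e-16). Its small difference in senescence (-0.12, adjusted p 0.0169) turned to 0.01 with scaling by total counts and 0.03 with a filter that keeps genes averaging at least 5 CPM, called the 5 CPM filter below, and was not called in either, nor with no filter (-0.10), in a fit of these groups alone (-0.06), or when cycling replicate 2 (-0.10) or, of the senescent vehicle at 6 h, replicate 2 (-0.10) or 3 (-0.11) was left out. Exons of SLC7A6 share 4216 of 7588 bases with genes on the other strand, among them SLC7A6OS, and the strand setting of the counting is not given in the sources used here, so its values are uncertain.

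SLC7A7 and SLC7A8, light chains best known from kidney and gut, were at 0.457 to 2.01 and 0.442 to 2.64 CPM over the 15 libraries. SLC7A8 was at 0.9602, 1.105 and 1.15 CPM in vehicle and 2.59, 1.71 and 2.64 CPM with GNF-7 at 6 h with no overlap (log2 fold change 1.11, SE 0.307, adjusted p 0.0025). The 24 h libraries held 0.766, 0.494 and 1.16 CPM in vehicle and 0.935, 0.844 and 1.16 CPM with GNF-7, where the groups overlapped and it was not called. In cycling libraries it was at 0.442, 0.448 and 1.37 CPM, with replicate 3 apart from the others. SLC7A7 was at 1.04 ± 0.240 CPM in vehicle and 1.69 ± 0.382 CPM with GNF-7 at 24 h, overlapping groups whose call (adjusted p 0.0409) was lost when vehicle library 1 (log2 fold change 0.53) or 2 (0.71) or GNF-7 library 2 (0.56) or 3 (0.66) of that time was left out, and with no filter (0.68).

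Because SLC3A2 and SLC7A5 moved by different amounts, their ratio changed between groups. Per kilobase of exon, SLC3A2 over SLC7A5 averaged 0.361 ± 0.00697 (SD, n = 3) in the cycling group, 0.726 ± 0.0258 in its senescent counterpart and 0.471 ± 0.0140 with GNF-7 at 6 h. It was 1.10 ± 0.0474 in vehicle and 0.736 ± 0.0345 with GNF-7 at 24 h. On this scale SLC3A2 was below SLC7A5 in every group except vehicle at 24 h. The scale divides by the union of all exons of a gene. The length of the transcripts expressed was not measured, so which transcript of the pair was more abundant cannot be read from it. SLC7A11, a further SLC3A2 partner that imports cystine and is outside the 33 genes, was at 32.1 ± 1.81 CPM in vehicle and 161 ± 7.88 CPM with GNF-7 at 6 h, and at 23.9 ± 2.26 and 174 ± 7.27 CPM at 24 h.

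**Figure D2:**
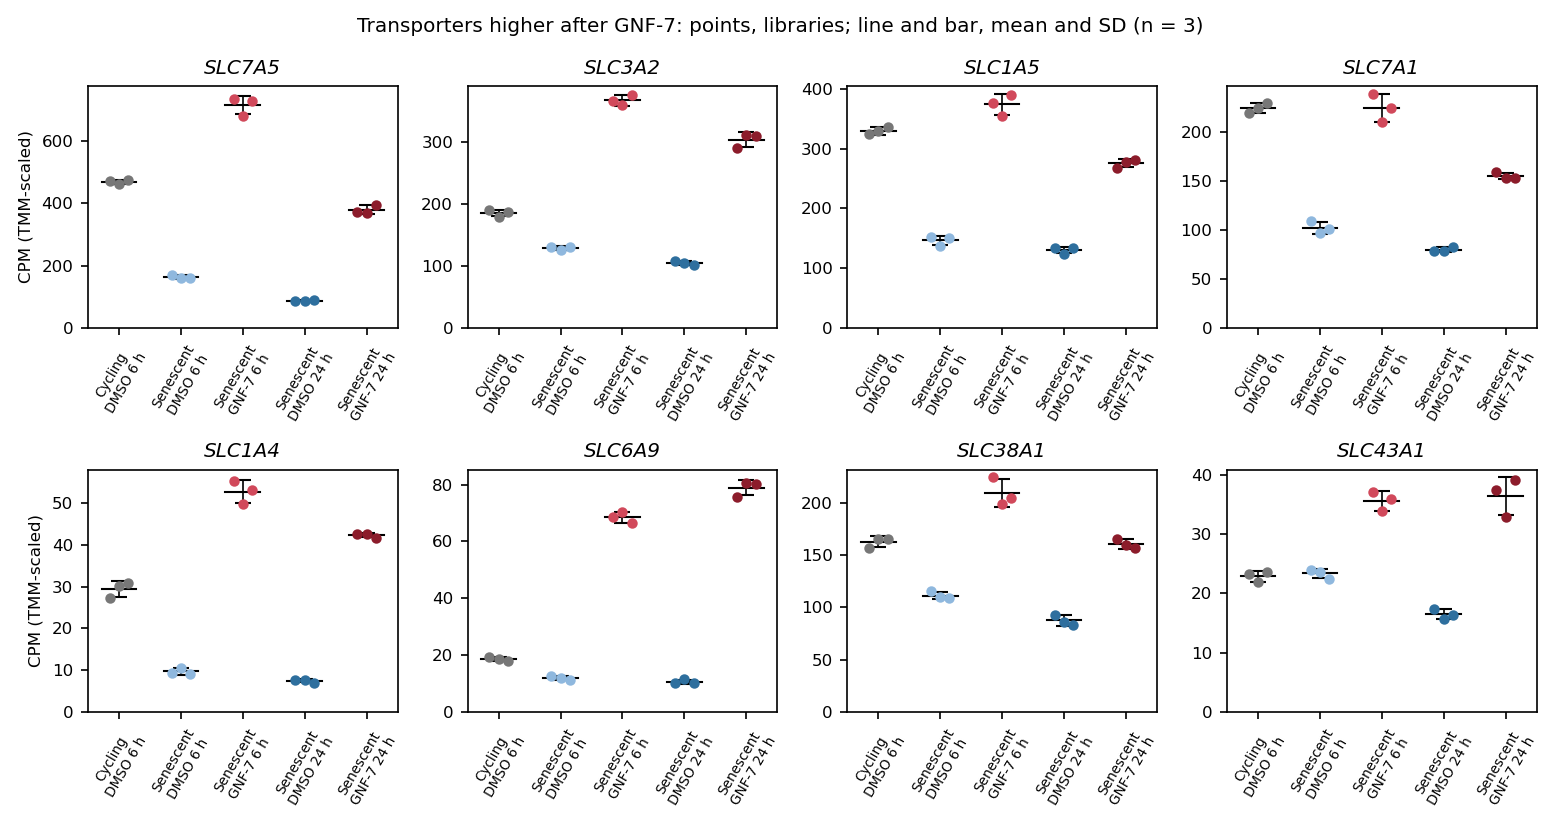
CPM in each of the 15 libraries for 8 carriers that were higher after GNF-7, by group, with the mean (line) and SD (bar) of 3 libraries. In the SLC7A5 panel vehicle libraries at 24 h lie at 86.1 to 88.1 CPM, the lowest of the 5 groups, and GNF-7 libraries at 6 h at 682 to 736 CPM, the highest.

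Cationic amino acids enter through SLC7A1 and SLC7A2. SLC7A1 (ENSG00000139514, chromosome 13, 29509410 to 29595688, minus strand), the widely expressed arginine and lysine carrier, was at 219, 224 and 229 CPM in cycling and 109, 96.6 and 101 CPM in senescent vehicle libraries. It was at 239, 209.9 and 224 CPM with GNF-7 at 6 h. At 24 h it was at 77.9, 78.8 and 82.3 CPM in vehicle and 159, 153 and 153 CPM with GNF-7. The log2 fold change was -1.14 (SE 0.0428, adjusted p 1.63e-32) in senescence and 1.13 (SE 0.0427, adjusted p 1.46e-31) with GNF-7 at 6 h, and the GNF-7 and cycling libraries at 6 h overlapped (95% interval of the log2 difference -0.08 to 0.08). At 24 h the rise was 0.96 (SE 0.0439, adjusted p 6.17e-28).

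SLC7A2 (ENSG00000003989, chromosome 8, 17497088 to 17570573, plus strand), a cationic carrier known in immune and liver cells, took another course. It was at 75.8, 78.6 and 81.2 CPM in cycling and 27.9, 26.9 and 29.4 CPM in senescent vehicle libraries, a log2 fold change of -1.49 (SE 0.0591, adjusted p 7.25e-32). Libraries given GNF-7 for 6 h held 40.1, 34.9 and 35.2 CPM, above its vehicle by 0.39 (SE 0.0612, adjusted p 3.44e-07) with a log2 fold change of -1.10 against cycling cells (adjusted p 5.89e-26). At 24 h vehicle libraries held 17.7, 17.7 and 18.2 CPM and GNF-7 libraries 18.8, 19.3 and 19.6 CPM, a difference that was not called (adjusted p 0.172).

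Neutral amino acids are carried by SLC1A4 and SLC1A5, which belong to the glutamate carrier family. SLC1A5 (ENSG00000105281, chromosome 19, 46774883 to 46788594, minus strand), the main glutamine carrier of many tumour lines, was at 324, 329.9 and 337 CPM in cycling and 153, 138 and 149.8 CPM in senescent vehicle libraries. It was at 378, 356 and 390.3 CPM with GNF-7 at 6 h. After 24 h vehicle libraries held 133, 124 and 134 CPM and GNF-7 libraries 268, 278 and 281 CPM. The groups compared did not overlap, and the log2 fold changes were -1.17 (SE 0.0399, adjusted p 2.85e-35) in senescence, 1.35 (SE 0.0398, adjusted p 1.23e-37) at 6 h and 1.08 (SE 0.0402, adjusted p 7.23e-33) at 24 h.

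SLC1A4 (ENSG00000115902, chromosome 2, 64988477 to 65023865, plus strand) carries alanine, serine and cysteine. Its log2 fold change in senescence was the lowest of the 27 carriers. Its interval (-1.75 to -1.46) overlapped those of SLC7A5 (-1.60 to -1.46) and SLC7A2 (-1.60 to -1.37), so their order was not resolved. SLC1A4 was at 27.1, 30.2 and 30.8 CPM in cycling libraries. In senescent vehicle libraries it was at 9.27, 10.6 and 9.16 CPM (log2 fold change -1.61, SE 0.0755, adjusted p 3.6e-28). With GNF-7 it was at 55.3, 49.8 and 53.04 CPM at 6 h, above every cycling library. The 24 h libraries held 7.72, 7.62 and 7.004 CPM in vehicle and 42.5, 42.6 and 41.7 CPM with GNF-7. The rises were 5.45-fold at 6 h (log2 fold change 2.45, SE 0.0725, adjusted p 1.23e-37) and 5.67-fold at 24 h (log2 fold change 2.50, SE 0.077, adjusted p 3.46e-37).

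The glutamate carriers of the same family moved the opposite way in senescence. SLC1A3 (ENSG00000079215, chromosome 5, 36606355 to 36688334, plus strand), a carrier of glutamate and aspartate, was at 21.96, 23.1 and 25.2 CPM in cycling and 49.7, 52.3 and 50.5 CPM in senescent vehicle libraries, a log2 fold change of 1.11 (SE 0.0629, adjusted p 2.65e-24). Libraries given GNF-7 for 6 h held 40.6, 42.4 and 42.7 CPM (-0.28 against vehicle, adjusted p 8.9e-05). At 24 h it was at 40.5, 46.3 and 39.9 CPM in vehicle and 18.8, 18.7 and 19.03 CPM with GNF-7, a log2 fold change of -1.16 (SE 0.0649, adjusted p 3.57e-24). All libraries with GNF-7 at 24 h were below every cycling library.

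SLC1A1 (ENSG00000106688, chromosome 9, 4490444 to 4587469, plus strand) carries glutamate and cysteine. Its log2 fold change in senescence was the highest of the 27, from a low level. Its interval (2.18 to 3.28) overlapped that of SLC43A2 (2.07 to 2.54), so their order was not resolved. SLC1A1 was at 0.563, 0.516 and 0.327 CPM in cycling libraries. In senescent vehicle libraries it was at 3.77, 2.84 and 2.67 CPM (log2 fold change 2.73, SE 0.281, adjusted p 2.89e-13). With GNF-7 at 6 h it was at 1.26, 2.06 and 2.04 CPM, below every vehicle library (log2 fold change -0.79, adjusted p 0.00297). At 24 h the vehicle and GNF-7 libraries overlapped, at 3.01 ± 0.5105 and 2.65 ± 0.573 CPM, and SLC1A1 was not called.

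Per kilobase, SLC1A5 exceeded SLC1A3 by 26.6 ± 1.31 times (SD, n = 3) in cycling cells and by 5.44 ± 0.431 times in senescent vehicle cells. The ratio was 16.8 ± 0.908 with GNF-7 at 6 h, and 5.84 ± 0.701 in vehicle and 27.5 ± 0.667 with GNF-7 at 24 h. The balance of the neutral over the glutamate carrier thus shrank in senescence and widened with GNF-7 at both times.

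Among the sodium- and chloride-coupled SLC6 carriers, SLC6A9 had the largest rise with GNF-7 of the 27 at 24 h, and at 6 h it and SLC1A4 rose by amounts within a standard error of each other. SLC6A9 (ENSG00000196517, chromosome 1, 43991500 to 44031467, minus strand) imports glycine. It was at 19.2, 18.7 and 17.9 CPM in cycling, 12.7, 12.0 and 11.2 CPM in senescent vehicle and 68.4, 70.4 and 66.6 CPM in GNF-7 libraries at 6 h. After 24 h vehicle libraries held 10.2, 11.4 and 10.1 CPM and GNF-7 libraries 75.8, 80.6 and 80.1 CPM. It fell in senescence by 0.63 (adjusted p 8.15e-12) and rose 5.71-fold at 6 h (log2 fold change 2.51, SE 0.0641, adjusted p 4.05e-41) and 7.46-fold at 24 h (log2 fold change 2.90, SE 0.0655, adjusted p 2.76e-44). Its exons share 404 bases with CCDC24 on the other strand.

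SLC6A15 (ENSG00000072041, chromosome 12, 84859488 to 84913615, minus strand), a carrier of branched-chain amino acids and proline, rose in senescence and again with GNF-7. It was at 15, 16.1 and 16.4 CPM in cycling and 23.6, 19.8 and 24.3 CPM in senescent vehicle libraries (log2 fold change 0.50, SE 0.075, adjusted p 2.43e-08). With GNF-7 it was at 42.5, 41.1 and 40.7 CPM at 6 h (log2 fold change 0.88, SE 0.0682, adjusted p 3.81e-17). The 24 h libraries held 17.4, 19.01 and 19.1 CPM in vehicle and 43.9, 42.4 and 39.6 CPM with GNF-7 (log2 fold change 1.19, SE 0.0702, adjusted p 5.74e-23). SLC6A6, the taurine carrier, went down instead, from 192 ± 1.36 to 164 ± 3.98 CPM at 6 h and from 204 ± 8.43 to 105 ± 4.53 CPM at 24 h. Its log2 fold change was -0.23 at 6 h (adjusted p 2.87e-06) and -0.96 at 24 h (adjusted p 2.8e-30).

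The SLC38 family holds sodium-coupled carriers of glutamine, alanine and other small neutral amino acids at the surface and others on the lysosome. SLC38A1, a surface carrier, was at 163 ± 4.98 CPM in cycling and 111 ± 3.68 CPM in senescent vehicle cells, and at 209 ± 13.3 CPM with GNF-7 at 6 h. At 24 h it was at 87.4 ± 5.15 CPM in vehicle and 161 ± 4.55 CPM with GNF-7. It fell by 0.55 in senescence (adjusted p 1.46e-17) and rose by 0.91 and 0.88 with GNF-7 (adjusted p 1.31e-26 and 6.5e-26).

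SLC38A2, a close relative of SLC38A1 that is known to be induced when cells lack amino acids, was not higher with GNF-7 at either time. It was at 511, 489 and 516 CPM in vehicle and 526, 498 and 496 CPM with GNF-7 at 6 h, overlapping groups with a 95% interval of the log2 difference of -0.06 to 0.07. At 24 h it was at 475, 441 and 454 CPM in vehicle and 374, 381 and 379.6 CPM with GNF-7, a log2 fold change of -0.27 (SE 0.0351, adjusted p 7.89e-10) with no overlap. Cycling libraries held 568, 580.5 and 589.6 CPM, and the call for the difference in senescence (-0.20, adjusted p 1.1e-06) was lost with total counts (-0.07) and with the 5 CPM filter (-0.05).

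Of the lysosomal members, SLC38A7 was higher in senescent cells and higher again with GNF-7. SLC38A7 (ENSG00000103042, chromosome 16, 58665109 to 58685104, minus strand), which exports glutamine and asparagine from lysosomes, was at 19.3, 21.8 and 19.8 CPM in cycling and 49.7, 48.9 and 50.99 CPM in senescent vehicle libraries (log2 fold change 1.29, SE 0.0582, adjusted p 3.63e-29). It was at 57.3, 55.8 and 54.8 CPM with GNF-7 at 6 h (0.17, adjusted p 0.00816), and at 24 h at 41.5, 40.5 and 41.4 CPM in vehicle and 57.2, 59.1 and 55.5 CPM with GNF-7 (0.48, adjusted p 9.06e-12). None of these pairs of groups overlapped.

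SLC38A9 (ENSG00000177058, chromosome 5, 55625845 to 55773194, minus strand), which reports lysosomal arginine to mTORC1, had small differences. It was at 14.6, 13.7 and 17.2 CPM in cycling and 18.9, 16.6 and 17.8 CPM in senescent vehicle libraries, and at 19.9, 18.0 and 22.8 CPM with GNF-7 at 6 h. After 24 h vehicle libraries held 20.1, 17.8 and 19.3 CPM and GNF-7 libraries 17.03, 17.4 and 18.1 CPM. Groups overlapped in senescence and with GNF-7 at both times, while GNF-7 libraries at 6 h lay above the cycling ones (log2 fold change 0.42, adjusted p 2.4e-05). The call in senescence (0.23, adjusted p 0.0193) was lost without cycling replicate 1 (0.20) or 2 (0.15) or senescent vehicle 6 h replicate 1 (0.17). At 6 h of GNF-7 it was not called (0.19, adjusted p 0.0722) but was without GNF-7 6 h replicate 2 (0.28), with the 5 CPM filter (0.24) and in a fit of these groups alone (0.20).

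SLC38A10 (ENSG00000157637, chromosome 17, 81245000 to 81295547, minus strand) was at 91.3, 84.3 and 84.5 CPM in cycling and 185, 166 and 173 CPM in senescent vehicle libraries (log2 fold change 1.01, SE 0.043, adjusted p 2.18e-30). It was at 154, 149 and 159 CPM with GNF-7 at 6 h, below every vehicle library (log2 fold change -0.18, adjusted p 0.000248). The 24 h libraries held 180.4, 166 and 179 CPM in vehicle and 154, 153 and 158 CPM with GNF-7 (log2 fold change -0.17, adjusted p 0.000248), a call that the 5 CPM filter ended (-0.07). SLC38A6 was at 9.65 ± 0.476 CPM in cycling and 13.9 ± 1.65 CPM in senescent vehicle cells (0.53, adjusted p 6.36e-06), and rose with GNF-7 at 24 h from 14.9 ± 1.24 to 23.3 ± 1.63 CPM (0.64, adjusted p 1.72e-08). At 6 h its GNF-7 and vehicle libraries overlapped, and the call (0.25, adjusted p 0.0296) was lost when vehicle library 1 (0.21) or 2 (0.19) or GNF-7 library 2 (0.18) or 3 (0.21) of that time was left out, and with no filter (0.23).

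**Figure D3:**
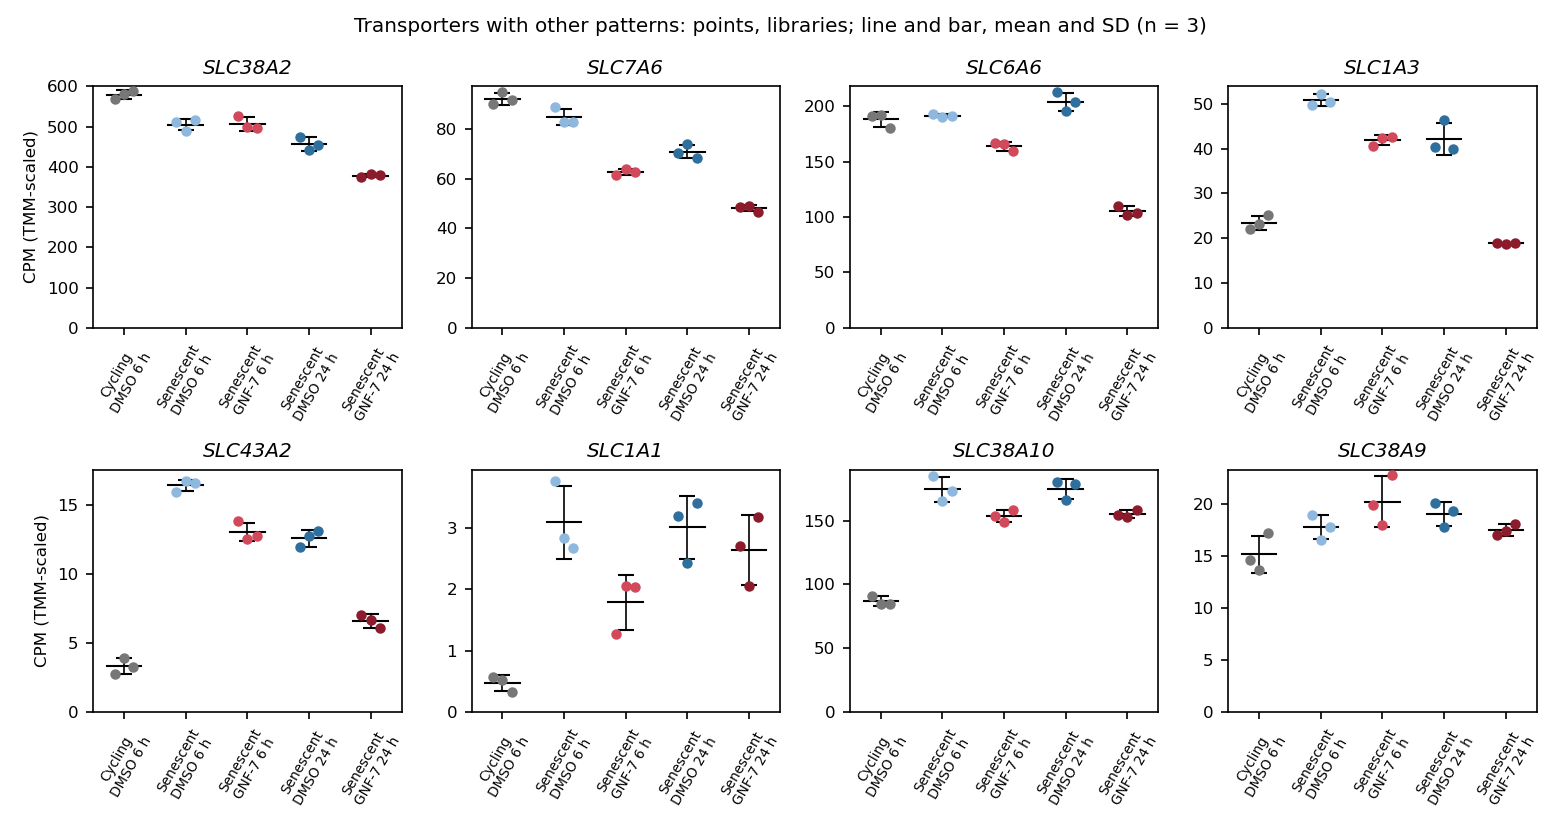
CPM in each of the 15 libraries for 8 carriers that did not rise with GNF-7 at both times, by group, with the mean (line) and SD (bar) of 3 libraries. SLC38A2 lies at 489 to 526 CPM in both senescent groups at 6 h, and SLC6A6, SLC1A3 and SLC43A2 are lower with GNF-7 than in vehicle, more so at 24 h than at 6 h.

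The proton-coupled carriers changed little with GNF-7. SLC36A1, which exports small neutral amino acids from lysosomes, was at 19.9 ± 0.811 CPM in cycling and 26.9 ± 1.49 CPM in senescent vehicle cells (0.43, adjusted p 6.61e-07), and the GNF-7 contrasts had 95% intervals of -0.03 to 0.25 at 6 h and -0.09 to 0.20 at 24 h on the log2 scale. SLC36A4, a carrier of proline and tryptophan, fell in senescence from 36.5 ± 1.403 to 20.9 ± 2.699 CPM (-0.81, adjusted p 2.74e-15). With GNF-7 at 24 h it was lower again (log2 fold change -0.23, adjusted p 0.00716), a call that the 5 CPM filter ended (-0.13).

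Carriers that let amino acids move down their gradient split by gene. SLC43A1 (ENSG00000149150, chromosome 11, 57484534 to 57515786, minus strand), a carrier of branched-chain and other large neutral amino acids, was at 23.3, 21.9 and 23.6 CPM in cycling and 23.97, 23.7 and 22.5 CPM in senescent vehicle libraries, which overlapped. Libraries given GNF-7 for 6 h held 37.1, 33.9 and 35.9 CPM (log2 fold change 0.61, SE 0.068, adjusted p 2.89e-11). At 24 h it was at 17.4, 15.7 and 16.4 CPM in vehicle and 37.4, 32.9 and 39.1 CPM with GNF-7 (log2 fold change 1.14, SE 0.071, adjusted p 5.36e-22). Its relative SLC43A2 (ENSG00000167703, chromosome 17, 1569267 to 1628886, minus strand), with a like set of substrates, rose in senescence and fell with GNF-7 at both times.

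SLC43A2 was at 2.73, 3.89 and 3.27 CPM in cycling and 15.9, 16.7 and 16.6 CPM in senescent vehicle libraries, a 4.94-fold rise (log2 fold change 2.30, SE 0.118, adjusted p 2.26e-26). With GNF-7 it was at 13.8, 12.5 and 12.8 CPM at 6 h (-0.33, adjusted p 0.00487). After 24 h vehicle libraries held 11.9, 12.7 and 13.1 CPM and GNF-7 libraries 7.01, 6.62 and 6.08 CPM (-0.93, adjusted p 3.13e-11). SLC43A3, known to carry purine nucleobases in place of amino acids, fell in senescence from 77.8 ± 1.65 to 42.1 ± 3.88 CPM (-0.89, adjusted p 1.03e-21) and rose by 0.35 with GNF-7 at 24 h (adjusted p 3.02e-07). Its call at 6 h (0.19, adjusted p 0.00631) was lost without vehicle 6 h replicate 2 (0.12). SLC16A10, a carrier of aromatic amino acids, fell in senescence from 7.78 ± 1.03 to 4.92 ± 0.581 CPM (-0.66, adjusted p 7.25e-05) and was not called for GNF-7 at either time.

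Scaled by exon length, the order of the carriers changed with the state of the cells. In cycling cells SLC1A5 (99.2 ± 1.99 CPM per kilobase) and SLC7A5 (98.95 ± 1.32) came highest and overlapped, above SLC38A2 (87.7 ± 1.68), SLC3A2 (35.8 ± 1.06) and SLC7A1 (29.1 ± 0.622). In senescent vehicle cells at 6 h SLC38A2 led at 76.5 ± 2.10, followed by SLC1A5 at 44.04 ± 2.37 and SLC7A5 at 34.3 ± 1.21. With GNF-7 at 6 h SLC7A5 led at 151 ± 6.11, followed by SLC1A5 at 112 ± 5.24 and SLC38A2 at 76.8 ± 2.54. In vehicle at 24 h SLC38A2 led again and SLC7A5 stood at rank 6, and with GNF-7 at 24 h SLC1A5 (82.8 ± 2.06) and SLC7A5 (79.8 ± 3.03) overlapped at the top. Summed over the 33 genes, the level came to 2700.2 ± 24.8 CPM (SD, n = 3) in the cycling group, 1953 ± 57.7 CPM in its senescent counterpart and 3266 ± 89.2 CPM with GNF-7 at 6 h. At 24 h the sums were 1696 ± 40.2 CPM in vehicle and 2412 ± 21.1 CPM with GNF-7, and no group overlapped another.

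**Figure D4:**
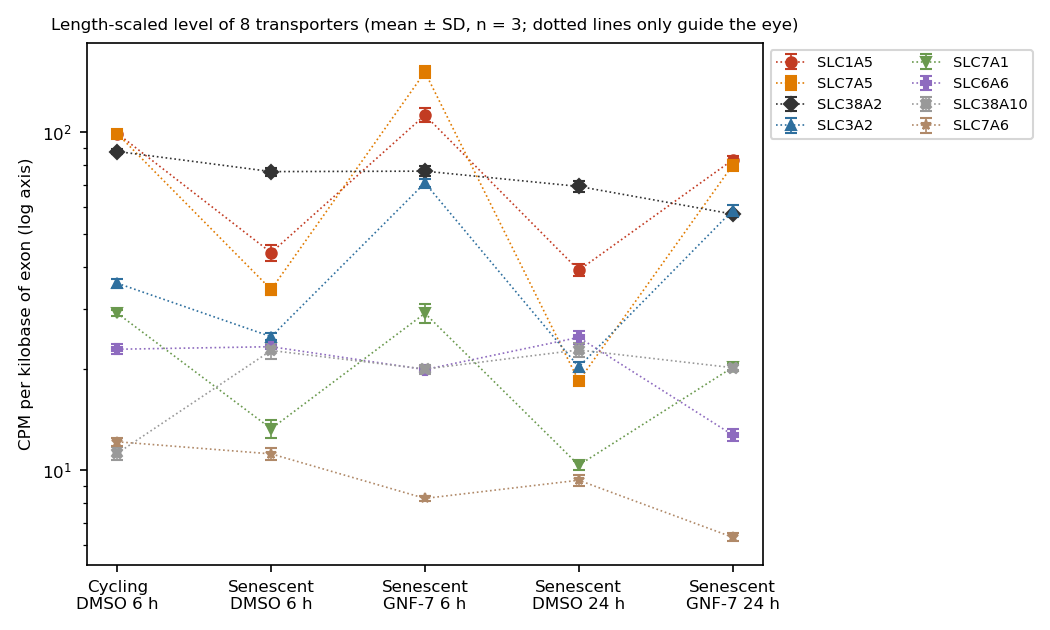
Level of 8 carriers in CPM per kilobase of exon (log axis) in the 5 groups, as mean and SD of 3 libraries, with dotted lines that only guide the eye. SLC38A2 stays between 57.3 and 87.7 in every group while SLC7A5 ranges from 18.4 in vehicle at 24 h to 150.7 with GNF-7 at 6 h.

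Whether the carriers lower in senescence were those higher with GNF-7 can be read at 24 h, since that comparison shares no library with the comparison of senescent and cycling cells. Of the 13 carriers lower in senescence, 8 were called higher with GNF-7 at 24 h (SLC7A1, SLC7A5, SLC3A2, SLC6A9, SLC1A4, SLC1A5, SLC38A1 and SLC43A3), 3 lower (SLC7A6, SLC38A2 and SLC36A4) and 2 neither (SLC7A2 and SLC16A10). The 8 were 61.5% of those lower in senescence and 61.5% of those higher with GNF-7. Over all genes tested, 1178 were lower in senescence and higher with GNF-7 at 24 h, which is 18.5% of the former and 21.7% of the latter. Of all genes lower in senescence 51.9% were also lower with GNF-7 and 29.7% not called, beside 23.1% and 15.4% of the 13 carriers. Of the 9 carriers higher in senescence, 3 were called higher with GNF-7 at 24 h (SLC6A15, SLC38A6 and SLC38A7), 3 lower (SLC1A3, SLC38A10 and SLC43A2) and 3 neither (33.3% each), beside 44%, 20% and 36% of the 6615 genes higher in senescence.

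Set directly against cycling vehicle cells, senescent cells given GNF-7 for 6 h had 18 of the 27 carriers called higher and 7 lower, where 39.6% and 36.1% of all genes were. SLC7A5 was 1.52-fold above cycling cells (log2 fold change 0.61, SE 0.0357, adjusted p 1.36e-23), SLC3A2 1.98-fold (log2 fold change 0.99, SE 0.0378, adjusted p 6.53e-33) and SLC6A9 3.68-fold (log2 fold change 1.88, SE 0.061, adjusted p 1.12e-36). SLC1A5 was higher by 0.18 (adjusted p 3.22e-05), a much smaller step. The 7 called lower were SLC7A2 (-1.10), SLC36A4 (-0.98), SLC16A10 (-0.80), SLC43A3 (-0.70), SLC7A6 (-0.56), SLC6A6 (-0.20) and SLC38A2 (-0.19). The calls of SLC6A6 and SLC38A2 were lost with total counts (-0.05 for both) and turned to 0.00 and 0.01 with the 5 CPM filter. This comparison holds the change of state and the drug together.

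In vehicle alone, 15 of the 27 carriers were called lower at 24 h than at 6 h and 0 higher by edgeR, where 9.29% and 9.26% of all genes were. DESeq2 and limma voom also called 0 higher and 15 lower, and at an unadjusted p under 0.05 SLC6A6 (0.09) alone was higher. Without vehicle 24 h replicate 2, and with the 5 CPM filter, 1 was called higher. SLC7A5 (-0.90), SLC7A2 (-0.65) and SLC43A1 (-0.50) fell most. SLC3A2 fell by 0.30, SLC7A1 fell by 0.36, SLC38A1 fell by 0.35 and SLC1A4 fell by 0.37. For these carriers the vehicle level beside GNF-7 was lower at 24 h than at 6 h, whereas the vehicle means of SLC38A6, SLC43A3 and SLC7A7 were not.

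For 13 of the 27 carriers the log2 response to GNF-7 was called different at the later time, further up for 5 and further down for 8. Over all genes 12.8% were called further up and 18% further down. SLC43A1 (0.54, adjusted p 1.19e-05), SLC6A9 (0.39, 0.000869) and SLC38A7 (0.31, 0.000696) were among those further up at 24 h. SLC1A3 (-0.88, adjusted p 9.41e-13), SLC6A6 (-0.73, 4.13e-17) and SLC43A2 (-0.60, 0.000847), which fell with GNF-7 at both times, fell further at 24 h. SLC3A2 (0.03, 95% interval -0.08 to 0.13) and SLC1A4 (95% interval -0.16 to 0.27) were not called. Without vehicle 6 h replicate 3, the count with a higher change at 24 h was 3.

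Other genes of the response were read from lists set beside the carriers. Of 20 genes of the GCN2 and ATF4 response, 18 were called higher with GNF-7 at 6 h and 1 lower (90% and 5%). The median log2 fold change was 1.78. At 24 h 18 were higher and 2 lower (90% and 10%), with a median of 1.86. Over all genes, 17.9% were called higher and 21.4% lower at 6 h, and 29.3% and 29.7% at 24 h. The largest rises at 6 h were CHAC1 (3.41), which breaks down glutathione, the asparagine synthetase ASNS (3.00, from a mean of 1.24 CPM in vehicle), the pseudokinase TRIB3 (2.80) and the stress transcription factor DDIT3 (2.72). In senescence 12 of the 20 were lower and 7 higher (60% and 35%), beside 34.4% and 35.6% of all genes. Of 24 genes that link lysosomal amino acids to mTORC1, 5 were called higher and 5 lower at 6 h (20.8% each). At 24 h 9 were higher and 5 lower (37.5% and 20.8%). SESN2, a leucine-responsive brake on mTORC1, was the largest of these at both times (1.47 and 1.67). It is on both lists, so it is also counted among the 20 genes of the GCN2 and ATF4 response. RRAGC, a subunit of the Rag GTPases, rose by 0.49 and 0.92. Of 30 further amino acid carriers 13 were tested, of which 3 were called higher and 4 lower at 6 h (23.1% and 30.8%). At 24 h 4 were higher and 4 lower (30.8% each). SLC7A11 was the only one of the 13 called with a rise of at least 2-fold (2.32 and 2.87), and the mitochondrial glutamate carrier SLC25A22 was lower (-0.61 and -0.80).

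Since several carriers moved with the ATF4 genes, promoter windows were searched for the core of the composite element that ATF4 binds with C/EBP factors, TGATGNAA, on both strands (TTNCATCA on the other). RefSeq windows on GRCh38.p14, from 250 bases before to 50 after a start site, were found for 25 of the 33 carriers, 46 windows in all. The core was present in 6 windows of 6 carriers (13% of the windows), and in 1270 of 35116 windows of all genes (3.62%). The stretches below are those where a match begins before the start site, together with the last 120 bases before the SLC7A5 start, shown because SLC7A5 rose with no match in its window. Bases are in lower case with the match in capitals, 5′ to 3′ on the strand of the gene.
SLC1A4, chr2:64989352-64989399, plus strand, match 7 bases before the start: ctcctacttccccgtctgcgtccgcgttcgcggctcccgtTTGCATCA
SLC38A1, chr12:46266513-46266560, minus strand, match 4 bases before the start: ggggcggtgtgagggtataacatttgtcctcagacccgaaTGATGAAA
SLC1A5, chr19:46784864-46784951, minus strand, match 97 bases before the start: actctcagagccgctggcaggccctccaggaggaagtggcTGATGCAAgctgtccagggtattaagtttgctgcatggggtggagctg
SLC1A3, chr5:36596338-36596415, plus strand, match 220 bases before the start: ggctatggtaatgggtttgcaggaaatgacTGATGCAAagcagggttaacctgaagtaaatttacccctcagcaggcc
SLC7A5, chr16:87869508-87869627, minus strand, no match: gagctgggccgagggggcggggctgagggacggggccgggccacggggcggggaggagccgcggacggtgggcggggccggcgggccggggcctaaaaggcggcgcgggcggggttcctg

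The matches in SLC7A1 and SLC3A2 begin 7 and 37 bases after a start site. Of the 6 carriers with a match, SLC7A1, SLC3A2, SLC1A4, SLC1A5 and SLC38A1 rose with GNF-7 at both times, and SLC1A3 fell at both. SLC7A5, SLC6A9, SLC38A6, SLC38A7 and SLC43A1 also rose at both times and have no match in their windows, and SLC38A2 has none either. SLC6A15 and SLC43A3 rose at both times too, but no window was found for them. Sequence outside the windows was not searched, and how many of all genes with the core rose was not counted. A match is a run of letters in a start window, and binding was not measured. SLC7A1 has only 1 window. The other carriers with a match have more than 1 window and the match in only 1, such as the inner start of SLC1A5. For SLC1A3 the window with the match (chr5:36596338-36596637) lies before the start of the gene as given above (36606355).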

How the data were processed

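RNA was measured in 15 bulk libraries of HT-1080 cells, 5 groups of 3 replicates. The labels call the replicates biological and name no separate thaws or days, so p-values measure the spread between these samples. The authors deposited raw counts per gene. Per the submitters' processing notes, bcl2fastq 2.20.0.422, STAR 2.7.9a, featureCounts 1.5.1 and GRCh38 were used, and per the labels' protocols the kit was a stranded mRNA kit. The annotation and the strand setting of the counting are not given in the sources used here. Of the table, 3 lines of a broken entry were left out. Symbols were matched to 60400 of 60670 identifiers (99.55%).

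Counts were fitted with edgeR 4.0.16 in R 4.3.3 (filterByExpr, TMM, robust quasi-likelihood), with 1 term per group and all libraries in the fit. Of all genes 18563 were tested, with Benjamini-Hochberg adjustment over them and a biological coefficient of variation of 4.64%. Library totals of 25991007 to 32323393 make a floor of 3 counts equal to 0.0947 to 0.121 CPM, counting error only. Levels per kilobase divide CPM by the union of exons in GENCODE release 29, since the table holds no lengths, and overlaps of exons come from the same annotation. Where the expressed transcripts are shorter than that union, the level per kilobase is understated, so orders between genes hold on this scale only. No pair of libraries was a duplicate within sampling noise.

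The 33 carriers and the lists were chosen with earlier results of these data known. Values by library are given for carriers called with a change of at least 2-fold in senescence or with GNF-7 and a mean of at least 1 CPM, and for SLC38A9. SLC38A2 was added after its values were seen. Genes outside the 33 are named from the lists, by the largest changes called in a comparison, except EIF2AK4 and EIF2S1, named after their values were seen. Alternatives were RLE size factors, total counts, scaling without mitochondrial genes, no filter, a minimum average of 5 CPM, limma voom 3.58.1, DESeq2 1.42.0, a fit of the groups compared alone, a replicate block and leaving out each library.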

Additional observations from a re-analysis of the deposited data

Results flagged for a closer look

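For 13 carriers the effect of GNF-7 differed between the treatment times by edgeR's quasi-likelihood test of that difference (log2 fold change at 24 h minus that at 6 h, n = 3 in each of 4 groups). The difference was negative for SLC1A3 (-0.88, adjusted p 9.41e-13), SLC6A6 (-0.73, adjusted p 4.13e-17) and SLC43A2 (-0.60, adjusted p 0.000847), each lower than vehicle at both times. It was negative for SLC38A2 (-0.28, adjusted p 7.09e-06), which was called only at 24 h. SLC1A5 (-0.27, adjusted p 0.000101), SLC7A1 (-0.17, adjusted p 0.0234) and SLC7A2 (-0.28, adjusted p 0.0148) rose at 6 h and had smaller log2 fold changes at 24 h. SLC38A9 (-0.31, adjusted p 0.042) was called at neither time. The difference was positive for SLC43A1 (0.54, adjusted p 1.19e-05), SLC6A9 (0.39, adjusted p 0.000869), SLC38A7 (0.31, adjusted p 0.000696), SLC6A15 (0.31, adjusted p 0.0121) and SLC38A6 (0.39, adjusted p 0.0179), all higher than vehicle at both times.

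Several of these calls rest on single libraries. The SLC7A1 call was lost when any of 5 was left out: at 6 h vehicle library 2 (-0.14) or 3 (-0.17) or GNF-7 library 1 (-0.13), and at 24 h library 3 of vehicle (-0.15) or of GNF-7 (-0.17). It was also lost with the 5 CPM filter (-0.12). That of SLC7A2 was lost when GNF-7 library 1 of 6 h was left out (-0.21). SLC6A15 lost its call when vehicle library 3 of 6 h (0.25) or vehicle library 1 of 24 h (0.26) was left out. For SLC38A6 the libraries that ended the call were vehicle 3 (0.29) and GNF-7 1 (0.27) of 6 h and vehicle 2 (0.34) and GNF-7 3 (0.36) of 24 h. For SLC38A9, 9 alternatives ended the call, with values from -0.32 to -0.22. They were total counts, the 5 CPM filter, and leaving out vehicle library 2 or 3 or GNF-7 library 3 of 6 h, or vehicle library 1 or 3 or GNF-7 library 1 or 2 of 24 h.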

How the results depend on the processing

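Of the single-gene values under the alternatives, 1823 kept their direction and side of the threshold, 49 lost a call, 3 gained one and 8 changed sign. The changes of sign were SLC7A6 in senescence (0.014 by total counts, 0.032 under the 5 CPM filter), SLC38A9 in vehicle over time (-0.007 by total counts, where the uncalled value was 0.10), and SLC6A6 (0.004) and SLC38A2 (0.010) in GNF-7 at 6 h against cycling cells under that filter. SLC7A5 had an uncalled difference of GNF-7 effects between times of 0.030 under that filter and of -0.058 to 0.001 with a library left out. The cause was not tested. Of the carrier counts, 2 moved by over 1.5 times: those with a higher GNF-7 effect at 24 h were 3 to 6 with a library left out (5 with all), and those higher in vehicle at 24 h were 0 to 1 with a library left out and 1 under the 5 CPM filter. Scaling by total counts shifted the all-gene median from 0.06 to 0.20 in senescence, from 0.10 to 0.24 against cycling cells and from 0.01 to -0.10 in vehicle over time. With them 11 carriers were higher and 11 lower in senescence, and 19 higher and 5 lower against cycling cells. Same-numbered libraries of different groups had deviations correlated at no more than 0.06, which cannot exclude that the numbers pair the samples. With a replicate block, 14 carriers were higher and 6 lower at 6 h and 13 and 7 at 24 h, as without it, and 8 of 15 libraries correlated best with their own number. Over all genes the block moved the calls for GNF-7 from 7286 to 7481 at 6 h and from 10940 to 11031 at 24 h. Depth limits SLC38A5 and the other 5 carriers too low to test, and those near 1 CPM (SLC7A7, SLC7A8 and SLC1A1 in cycling cells).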

Other observations

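Of the 24 genes listed as carrying lysosomal amino acid signals to mTORC1, 14 were called higher and 3 lower in senescent than in cycling vehicle cells (58.3% and 12.5%, beside 35.6% and 34.4% of all genes and 51% and 29.2% of the other SLC genes), with the largest rises in SESN3 (2.73) and CASTOR1 (2.49), an arginine sensor that restrains mTORC1. With GNF-7 at 24 h RRAGD (0.90), another Rag GTPase subunit, and FLCN (0.63), the folliculin partner of the Rag GTPases, rose beside SESN2 (1.67) and RRAGC (0.92). SESN3 was lower with GNF-7 than in vehicle at 6 h (-0.62) and at 24 h (-0.47).

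GCN2's own gene EIF2AK4 was not called with GNF-7 at 6 h and was lower at 24 h (-0.15), and EIF2S1, which encodes the eIF2 subunit that GCN2 phosphorylates, was lower at both times (-0.18 and -0.47). These were the 2 genes of that list of 20 not higher with GNF-7, and they were named after their values were seen.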
